A study of Mus musculus with 12 samples.

Results

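The zinc finger genes with a Zfp symbol are 254 of the 9842 genes listed in a table of RNA levels from mouse B cells. They are all rows whose Entrez ID maps to a symbol made of Zfp and a number. The series set B cells that lack LSD1 (Kdm1a), a histone demethylase, against wild-type B cells, before and after transitional B cells were turned into marginal zone B cells in culture. All mice were female and of the strain C57BL/6J, and each library was made from 2000 sorted cells. The 12 libraries form 4 groups of 3. The group eMZB_KO holds marginal zone B cells derived ex vivo from LSD1-knockout mice. They grew out of splenic transitional B cells during a culture of 3 days in which BAFF (B cell survival) and DL1 (Notch activation) were supplied, and were then sorted as B220+ CD1d+ CD21+. The group eMZB_WT holds the same cells from wild-type mice. The group TrB_KO holds unstimulated transitional B cells (B220+ CD93+) of LSD1-knockout spleens, and TrB_WT holds those of wild-type spleens. Thy1.1, F4/80 and CD11b were absent by the sort in every group. The labels name neither the deleted allele nor a Cre strain, and separate animals per replicate are not stated, so p-values reflect library-to-library spread alone, some of which may be technical.

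Zinc finger proteins hold a metal ion in short folds that read nucleic acid. In the C2H2 type, tandem fingers bind DNA, and many such proteins carry a KRAB box that recruits the corepressor Trim28 and the histone methyltransferase Setdb1 to silence retroelements and other targets. KRAB genes lie in tandem clusters and are mostly expressed at low levels. The CCCH type includes Zfp36 (tristetraprolin), Zfp36l1 and Zfp36l2, which bind AU-rich elements of messenger RNAs and promote their decay. Zfp36l1 is known to be required for marginal zone B cells in mice, and Zfp36l1 and Zfp36l2 restrain the cell cycle of early B cell precursors.

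The family was sorted into classes by patterns in the longest coding sequence of each gene. Of the 254 genes, 252 are protein coding. C2H2 fingers without a match to a KRAB box were found in 147 genes, with a median of 9 fingers, and C2H2 fingers with a KRAB box in 100, with a median of 12. The CCCH pattern matched 4 genes, Zfp36, Zfp36l1, Zfp36l2 and Zfp330, the last by pattern only. Zfp839 matched neither pattern, and Zfp783, annotated as a long noncoding RNA, and the pseudogene Zfp133-ps had no coding sequence. The genes lie on 19 chromosomes, with 57 on chromosome 7, 37 on chromosome 17 and 27 on chromosome 13. For 108 genes at least 3 other Zfp genes start within 500 kb, and for 91 genes none does. Similar transcripts can share reads. In 35 genes at least 20% of all 50-base windows of the transcript also occur in transcripts under another gene identifier. These include predicted genes, and for Zfp935 a second identifier of the same symbol, so the count is not one of tandem copies alone. How such reads were counted is not known here.

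The results below turn on a few of these genes, and the 250 bases before the RefSeq start (GRCm38.p6) are shown for 3 of them. Zfp36 (chr7:28379229-28379478, minus strand) and Zfp619 (chr7:39517516-39517765, plus strand), which were lower in eMZB than in TrB cells, Zfp36 in both genotypes and Zfp619 by the test in wild type alone, each hold a CArG box, the site of serum response factor, written in capitals. Zfp110 (chr7:12834511-12834760, plus strand), which was higher in eMZB cells, holds none of the 3 motifs searched.
Zfp36: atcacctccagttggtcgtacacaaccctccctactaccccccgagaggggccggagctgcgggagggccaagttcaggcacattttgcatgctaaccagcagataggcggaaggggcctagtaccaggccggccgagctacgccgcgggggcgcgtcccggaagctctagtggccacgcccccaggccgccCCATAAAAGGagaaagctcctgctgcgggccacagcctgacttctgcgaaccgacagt
Zfp619: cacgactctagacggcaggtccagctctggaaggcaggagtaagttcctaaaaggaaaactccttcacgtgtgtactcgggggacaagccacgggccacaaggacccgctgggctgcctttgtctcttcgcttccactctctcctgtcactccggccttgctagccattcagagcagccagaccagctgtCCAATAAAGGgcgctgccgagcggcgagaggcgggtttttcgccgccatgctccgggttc
Zfp110: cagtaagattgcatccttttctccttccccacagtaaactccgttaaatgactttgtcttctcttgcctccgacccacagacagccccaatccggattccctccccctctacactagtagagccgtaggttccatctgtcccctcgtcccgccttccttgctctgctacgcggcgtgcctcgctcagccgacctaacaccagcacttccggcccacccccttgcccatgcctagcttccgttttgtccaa
The box lies 58 to 49 bases before the start in Zfp36 and 60 to 51 bases before it in Zfp619. Windows of 250 bases were available for 214 of the Zfp genes (260 windows) and were searched on both strands for the CArG box, the NF-kB site and TGGGAA, the core letters bound by the Notch partner RBPJ. The CArG box stood in 1.15% of the Zfp windows, in 1.08% of the windows of listed genes and in 1.47% of all 32851 windows of the table. The NF-kB site stood in 3.85%, 4.28% and 3.90%, and TGGGAA in 30.0%, 19.9% and 21.6%. All 3 Zfp windows with a CArG box belonged to genes called lower in eMZB cells in at least one genotype, Zfp36, Zfp619 and Zfp644. Of the 36 windows of the genes called lower, 3 held the CArG box and 4 the NF-kB site. None of the 27 windows of the genes called higher held either. TGGGAA was in 27.8% of the windows of the genes called lower and 22.2% of those called higher. These matches are a description of letters in a window and were not tested. The motifs were not counted in the windows of all listed genes called higher or lower, so the called Zfp genes lack that background.

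Levels are given as FPKM divided by 1 size factor per library (scaled FPKM, a measure per length). Zfp genes were expressed at low levels. Their mean over the 12 libraries had a median of 2.41 scaled FPKM, against 4.34 for all listed genes, and 199 of the 254 were below that median of all genes. The means of 39% of Zfp genes and 22.4% of all genes were under 2, and 18.1% of Zfp genes and 44.9% of all genes reached 5. In recovered reads, the median Zfp gene had 142 per library, and the gene means ran from 19.9 to 1920 reads. The median over Zfp genes was 2.13 to 2.29 in the eMZB_KO libraries, 2.28 to 2.43 in eMZB_WT, 2.44 to 2.61 in TrB_KO and 2.42 to 2.69 in TrB_WT. By class, the median level was 2.07 scaled FPKM for KRAB genes, 2.63 for C2H2 genes without a KRAB match and 14.4 for the CCCH genes.

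**Figure D1:**
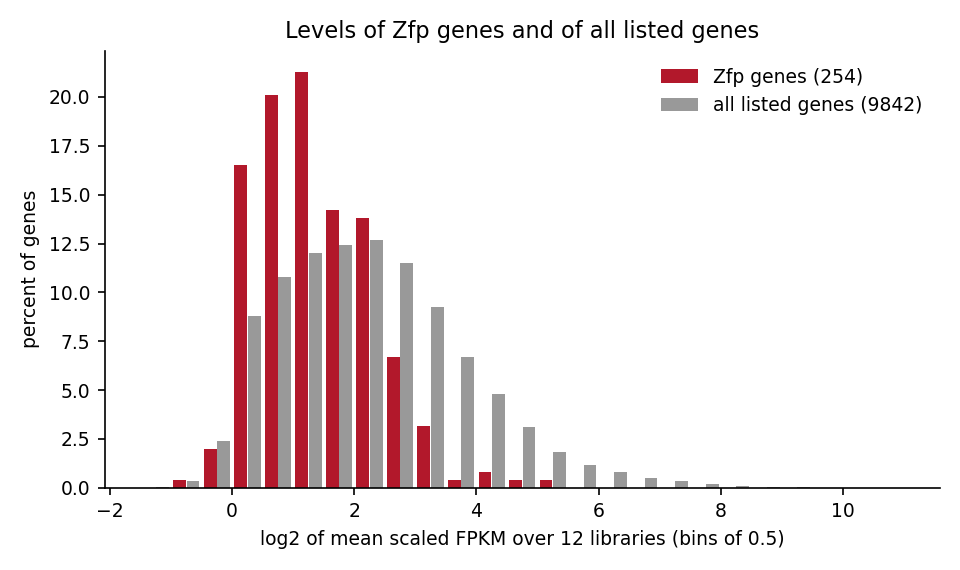
Distribution of the mean level over 12 libraries (log2 of scaled FPKM, bins of 0.5, horizontal axis) for 254 Zfp genes and all 9842 listed genes, as a percent of each set (vertical axis). The Zfp genes crowd at the low end, and 6 of them have a mean of 10 or more.

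The 6 genes with a mean of 10 or more were Zfp36 (37.4), Zfp706 (23.5), Zfp36l1 (21.5), Zfp207 (19.1), Zfp740 (13.7) and Zfp106 (11.2 scaled FPKM). Zfp207 encodes a kinetochore protein that binds Bub3, and Zfp106 an RNA-binding protein needed by motor neurons. Zfp207 had 20, 19.4 and 19.3 scaled FPKM in eMZB_KO, 19.1, 19.9 and 20 in eMZB_WT, 17.9, 17.1 and 20.2 in TrB_KO, and 17.2, 18.8 and 20.2 in TrB_WT. The groups overlap in part, and its log2 change was 0.09 or less in size in each of the 4 pairwise comparisons (SE 0.08). Zfp706 ran from 20.4 to 27.1 and Zfp106 from 9.57 to 13 over the 12 libraries, and neither passed the test in any comparison.

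Facts of the libraries bear on every comparison. Reads in the listed genes ran from 1.96 to 8.78 M per library, 16.7% to 61.6% of a library's total. TrB_KO replicate 3 stood apart, with 61.6% of its reads in listed genes, a size factor of 2.144 and 285 listed genes at 0, against 19 to 65 in the other libraries. Kdm1a ran from 2.53 to 2.66 scaled FPKM in eMZB_KO and from 4.68 to 8.63 in eMZB_WT. It ran from 2.56 to 3.35 in TrB_KO and from 3.47 to 8.54 in TrB_WT. The lowest wild-type values came from the libraries labelled eMZB_WT replicate 3 (4.68) and TrB_WT replicate 3 (3.47). Both of these wild-type libraries lie nearer to the knockouts than their partners do. Of the sorting markers, Cd93 had 0.697 to 1.1 in the 6 eMZB libraries and 4.17 to 6.05 in the 6 TrB libraries. The sum of Cr2 (CD21) and Cd1d1 had 83.8 to 94.4 in eMZB and 28.3 to 37.7 in TrB libraries. Cr2 alone had 60.9 to 70.7 and 7.79 to 15.3, while Cd1d1 overlapped in wild type (22.5 to 23.0 in eMZB_WT, 19.8 to 24.8 in TrB_WT). The 6 B cell markers summed to 1070 to 1290 in eMZB and 1780 to 2350 in TrB libraries. Of these, Ptprc overlapped (53.1 to 60.8 in eMZB, 46.5 to 63.0 in TrB). Of 5 T cell markers 0, and of 5 macrophage and monocyte markers 3, were among the genes analysed. Those 3, Adgre1, Itgam and Cd68, summed to 4.25 to 5.45 in eMZB_KO, 2.48 to 3.36 in eMZB_WT, 4.31 to 5.12 in TrB_KO and 5.05 to 6.55 in TrB_WT. They did not move together. In TrB_KO against TrB_WT, Adgre1 was lower (0.976 to 1.61 against 2.05 to 2.43) and Itgam higher (1.2 to 1.96 against 0.777 to 1.02). Plasma cell markers (Sdc1, Prdm1, Jchain, Xbp1) summed to 22.8 to 31.0 in eMZB_KO, 37.4 to 44.6 in eMZB_WT, 38.9 to 87.0 in TrB_KO and 20 to 42.5 in TrB_WT. The gap between eMZB_KO and TrB_KO lay mostly in Jchain (0.658 to 5.27 against 17.9 to 59.2). Sdc1 was also lower in eMZB_KO than in TrB_KO, while Prdm1 and Xbp1 overlapped. The part of these differences in the results below was not tested, and in such bulk samples fewer cells of a type and less RNA per cell cannot be told apart.

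The cell type comparison sets eMZB cells, sorted after 3 days of culture with BAFF and DL1, against unstimulated TrB cells. Cell type, culture and sort differ together, so their parts in a change cannot be told apart. In both genotypes fewer Zfp genes changed than among all genes, and those that changed were mostly lower in eMZB cells. In wild type, limma called 35 of the 254 (adjusted p under 0.05 over all listed genes), 11 higher and 24 lower in eMZB_WT than in TrB_WT. That is 13.8% of Zfp genes, beside 27.4% of all listed genes. By direction, 4.33% of Zfp genes and 14.6% of all genes were called higher, and 9.45% and 12.7% were called lower. In the knockout, 43 were called, 14 higher and 29 lower in eMZB_KO than in TrB_KO, which is 16.9% beside 27.4% of all genes. The shares called higher were 5.51% of Zfp genes and 14.2% of all genes, and the shares called lower 11.4% and 13.2%. Without any threshold, 31 Zfp genes (12.2%) were higher and 63 (24.8%) lower in wild type with no overlap between the libraries, beside 21.8% and 23.3% of all genes. In the knockout these numbers were 26 (10.2%) and 63 (24.8%), beside 22.7% and 21.2%. The median log2 change of the Zfp genes was -0.07 in wild type (all genes -0.00) and -0.12 in the knockout (all genes -0.01). 

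**Figure D2:**
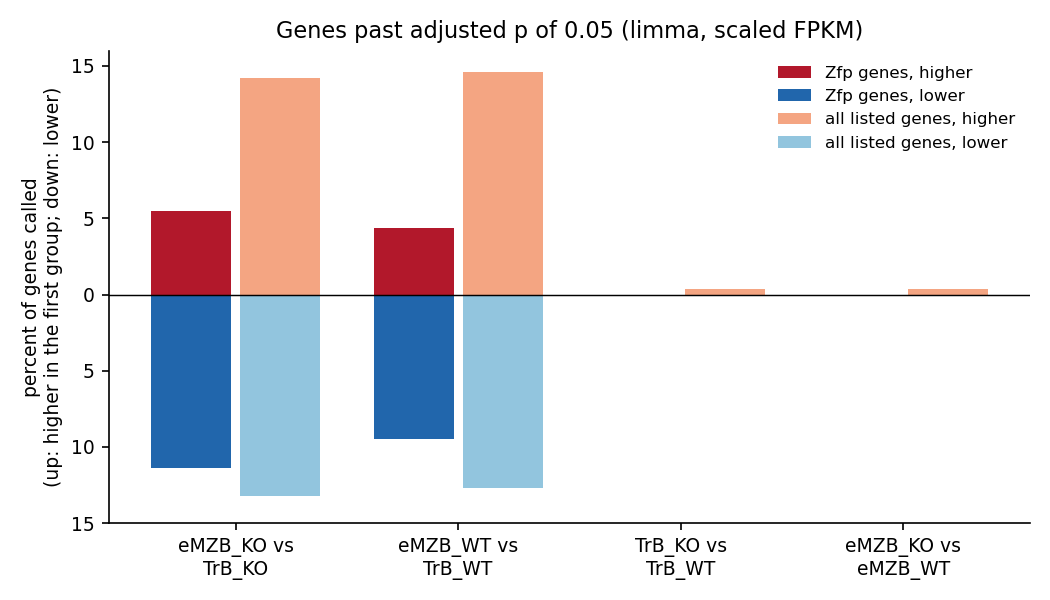
Percent of 254 Zfp genes (dark bars) and of all 9842 listed genes (light bars) past an adjusted p of 0.05 in limma on scaled FPKM, higher (up) or lower (down) in the first group named. The Zfp share is below that of all genes in each cell type comparison, most of all upward (5.51% and 14.2% in the knockout). With LSD1 loss it is 0, beside 0.406% of all genes in eMZB and 0.498% in TrB cells. On the deposited scale the cell type calls turn upward, to 25 of 26 in wild type and 1 of 1 in the knockout.

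The shares were also counted by level. Among genes with a mean of 5 or more, 21.7% of Zfp genes and 34.7% of all genes were called in wild type, and 41.3% and 36.2% in the knockout. Under a mean of 2 the shares were 9.09% and 20.7% in wild type and 6.06% and 17.4% in the knockout. From 2 to 5 they were 14.7% and 21.8%, and 16.5% and 22.1%. The Zfp share was below that of all genes in each band except the highest band of the knockout comparison.

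The counts move with the scale and with single libraries. Unscaled, the deposited FPKM shifted all genes by a median log2 change of 0.23 in the knockout and 0.67 in wild type. Limma then called 1 Zfp gene in the knockout, higher, beside 4.67% of all genes, and 26 in wild type, 25 higher and 1 lower, beside 19.3% of all genes. The median of the Zfp genes was 0.08 and 0.53 on that scale, below that of all genes there too. Directions below are relative to the scaled median. In wild type the count was 54 without TrB_KO replicate 3, 23 without TrB_WT replicate 1, 20, 23 and 22 without eMZB_WT replicates 1, 2 and 3, and 26 without the library labelled TrB_WT replicate 3. In the knockout it was 21 and 26 without eMZB_KO replicates 1 and 3, and 46 without TrB_KO replicate 3. With voom on recovered reads, 73 Zfp genes (22 higher, 51 lower) were called in the knockout, beside 34.9% of all genes, and 30 in wild type, beside 23.9%.

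Both comparisons called 15 Zfp genes, each in the same direction. The groups compared share no library, but the fit gives each gene 1 estimate of spread over all 12 libraries, so the calls are not independent. These are 42.9% of the wild-type calls and 34.9% of the knockout calls, beside 68.9% and 68.8% for all genes. Higher in eMZB cells of both genotypes were Zfp110, Zfp12, Zfp692 and Zfp800. Lower were Zfp36, Zfp36l2, Zfp608, Zfp687, Zfp296, Zfp263, Zfp3, Zfp607a, Zfp825, Zfp882 and Zfp944. Of the 20 genes called in wild type alone, 19 had the same sign in the knockout, and of the 28 called in the knockout alone, 26 had the same sign in wild type. Whether a change differed between genotypes is the interaction, which called no Zfp gene. Across the 254 genes the log2 changes of both comparisons had a Pearson r of 0.61 (0.81 across all genes), a description across genes, which are not independent replicates.

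**Figure D3:**
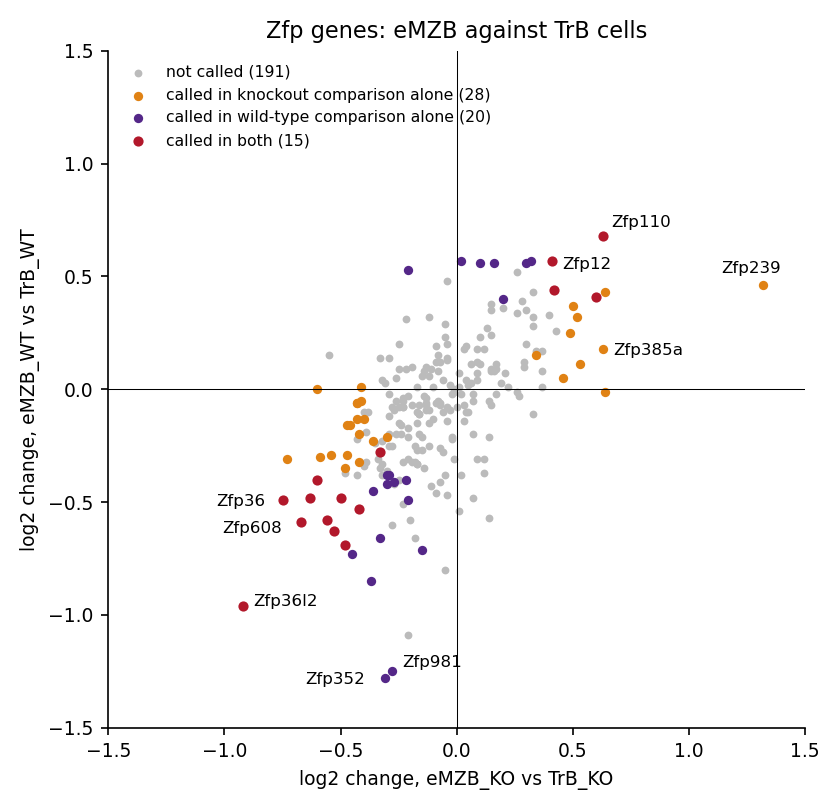
Log2 change of each of the 254 Zfp genes between eMZB and TrB cells in the knockout (horizontal axis) and in wild type (vertical axis), from limma on scaled FPKM, coloured by call. The 15 genes called in both lie at the upper right (4) and lower left (11); on the deposited scale the wild-type values of Zfp36, Zfp608 and several others labelled or coloured here lie above 0.

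Among the CCCH decay factors, Zfp36 and Zfp36l2 were lower in eMZB cells. Zfp36 (Entrez 22695, chr7:28376784-28379228, mm10) had 28.2, 25.1 and 30.8 scaled FPKM in eMZB_KO, against 47.1, 44.8 and 51.7 in TrB_KO. It had 28.5, 30.4 and 32.3 in eMZB_WT, against 39.9, 39.6 and 50.5 in TrB_WT. All 6 eMZB libraries lie below all 6 TrB libraries. The log2 change was -0.75 (SE 0.11, limma adjusted p = 0.000298) in the knockout and -0.49 (SE 0.11, adjusted p = 0.00548) in wild type, and it was called on leaving out any 1 of the 12 libraries. On the deposited scale the wild-type change was 0.36, short of the median shift of all genes there.

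Zfp36l2 (Entrez 12193, chr17:84183924-84187947) had 3.83, 4.33 and 5.42 scaled FPKM in eMZB_KO, against 9.45, 8.75 and 10 in TrB_KO. In eMZB_WT it had 5.03, 4.50 and 4.06, against 14.6, 12.6 and 4.83 in TrB_WT, the lowest in the library labelled replicate 3. The knockout groups do not overlap, while that 1 wild-type transitional library lies among the eMZB values. Its log2 change was -0.92 (SE 0.28, limma adjusted p = 0.0263) in the knockout and -0.96 (SE 0.28, adjusted p = 0.0218) in wild type. Without the library labelled TrB_WT replicate 3 the wild-type change was -1.40 (adjusted p = 1.68e-05). The call was lost without any 1 of 5 libraries in the knockout comparison, TrB_KO replicate 3 among them (adjusted p = 0.0566), and without any 1 of 4 in wild type.

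Zfp36l1 (Entrez 12192) had 19.5, 18 and 24.9 scaled FPKM in eMZB_KO, against 22.7, 21.5 and 30.8 in TrB_KO. It had 18.9, 17.5 and 20.8 in eMZB_WT, against 20.2, 21.1 and 22.3 in TrB_WT. In both genotypes the groups overlap. The log2 change was -0.25 (SE 0.14, limma adjusted p = 0.22) in the knockout and -0.15 (SE 0.14, adjusted p = 0.46) in wild type; neither passed the test, and on the deposited scale they were 0.04 and 0.68.

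Zfp110 was the Zfp gene with the largest rise in wild type. It encodes a KRAB protein also known as Nrif, which interacts with the neurotrophin receptor p75 (Entrez 65020, chr7:12834761-12850586). It had 9.96, 10.5 and 10.5 scaled FPKM in eMZB_KO, against 5.76, 6.10 and 7.19 in TrB_KO, and 9.68, 9.60 and 9.86 in eMZB_WT, against 6.10, 4.82 and 6.25 in TrB_WT. All 6 eMZB libraries lie above all 6 TrB libraries. Its log2 change was 0.63 (SE 0.10, limma adjusted p = 0.000847) in the knockout and 0.68 (SE 0.10, adjusted p = 0.000461) in wild type, called on leaving out any 1 of the 12 libraries.

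Zfp12 had 3.31, 3.27 and 3.81 scaled FPKM in eMZB_KO, against 2.62, 2.28 and 2.18 in TrB_KO, and 3.53, 3.68 and 3.60 in eMZB_WT, against 1.91, 2.21 and 2.18 in TrB_WT. All eMZB libraries were higher than all TrB libraries. The log2 change was 0.41 (limma adjusted p = 0.00958) in the knockout and 0.57 (adjusted p = 0.00131) in wild type. Zfp800 rose by 0.60 (adjusted p = 0.00333) in the knockout and 0.41 (adjusted p = 0.026) in wild type. Zfp692 rose by 0.42 in the knockout and by 0.44 in wild type (adjusted p = 0.0178 and 0.0142).

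Zfp608, which in mouse thymocytes has been linked to repression of Rag1 and Rag2, was lower in eMZB cells (Entrez 269023, on chromosome 18). It had 1.52, 1.56 and 2.04 scaled FPKM in eMZB_KO, against 2.79, 3.27 and 3.87 in TrB_KO, and 2.17, 1.99 and 2.04 in eMZB_WT, against 3.59, 3.8 and 3.46 in TrB_WT. No eMZB library reached the lowest TrB library. Its log2 change was -0.67 (SE 0.12, limma adjusted p = 0.00141) in the knockout and -0.59 (SE 0.12, adjusted p = 0.00327) in wild type. It was called on leaving out any 1 of the 12 libraries, and on the deposited scale the wild-type change was 0.05.

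Other C2H2 genes were lower in both genotypes as well. Zfp296 had 5.42, 4.03 and 5.23 scaled FPKM in eMZB_KO, against 7.5, 7.47 and 7.98 in TrB_KO, and 5.89, 5.28 and 7.07 in eMZB_WT, against 10.7, 8.07 and 9.97 in TrB_WT. Neither genotype's groups overlap, and the log2 changes were -0.56 (adjusted p = 0.00704) and -0.58 (adjusted p = 0.00611) by limma. Zfp687 fell by 0.42 (adjusted p = 0.0129) and 0.53 (adjusted p = 0.0035), and Zfp263 by 0.33 (adjusted p = 0.0146) and 0.28 (adjusted p = 0.0312), in the knockout and in wild type. Zfp607a, on chromosome 7, fell by 0.48 (adjusted p = 0.0125) in the knockout and by 0.69 (adjusted p = 0.00154) in wild type. On the deposited scale the wild-type changes of Zfp296, Zfp687 and Zfp263 were 0.19, 0.22 and 0.50.

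Other falls were large in wild type and rest on low values. Zfp619, a KRAB gene with 33 fingers, had 0.64, 0.836 and 0.966 scaled FPKM in eMZB_WT, against 2.61, 2.02 and 2.19 in TrB_WT (log2 -0.85, limma adjusted p = 0.00278). In eMZB_KO it had 1.04, 0.809 and 0.849, against 1.81, 1.80 and 0.883 in TrB_KO, where the groups overlap through TrB_KO replicate 3. Zfp352, known from the early mouse embryo, had 0.526, 0.536 and 0.555 in eMZB_WT, against 3.28, 2.46 and 2.51 in TrB_WT. Its log2 change of -1.28 (SE 0.36, limma adjusted p = 0.0193) was the largest fall in wild type. In eMZB_KO it had 0.754, 1.21 and 0.167, against 2.28 and 1.61 in TrB_KO replicates 1 and 2 and 0 in TrB_KO replicate 3, the only value of 0 among the Zfp genes. Most Zfp genes had more recovered reads in TrB_KO replicate 3 than in replicates 1 and 2, but several nearly vanished there. In replicates 1, 2 and 3, Zfp981 had 87, 100 and 8 reads, Zfp976 75, 154 and 13, Zfp534 52, 57 and 9, and Zfp41 46, 47 and 4. These values enter both comparisons with TrB_KO and the shared estimate of spread. Zfp981 had 0.941, 1.48 and 0.946 in eMZB_WT, against 4.27, 3.14 and 4.74 in TrB_WT (log2 -1.25, limma adjusted p = 0.0352), and 39.9% of its transcript windows are shared with another gene. By voom on reads neither Zfp352 (adjusted p = 0.169) nor Zfp981 (adjusted p = 0.121) was called. Zfp846 (-0.73), Zfp512b (-0.71) and Zfp710 (-0.66) were the other large falls in wild type.

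In the knockout the largest rise was that of Zfp239, also known as Mok2 (Entrez 22685, chr6:117862024-117872766). It had 3.16, 3.25 and 2.98 scaled FPKM in eMZB_KO, against 0.703, 0.275 and 1.06 in TrB_KO, and 2.25, 1.58 and 1.55 in eMZB_WT, against 1.47, 1.08 and 0.592 in TrB_WT. All eMZB libraries were higher than all TrB libraries, and eMZB_KO was the highest group. The log2 change was 1.32 (SE 0.20, limma adjusted p = 0.000405) in the knockout and 0.46 (SE 0.20, adjusted p = 0.105) in wild type, and Zfp239 was the only Zfp call of the knockout comparison on the deposited scale as well (1.47, adjusted p = 0.000929).

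Zfp385a, a p53 target also called Hzf, had 5.79, 6.38 and 6.34 scaled FPKM in eMZB_KO, against 3.15, 4.14 and 3.70 in TrB_KO (log2 0.63, limma adjusted p = 0.000616). It had 4.24, 4.40 and 4.61 in eMZB_WT, against 3.66, 3.73 and 4.01 in TrB_WT. Each eMZB library was above each TrB library, with eMZB_KO highest, and the wild-type change was 0.18 (adjusted p = 0.212). Zfp52, a KRAB gene of the chromosome 17 clusters, had 6.90, 6.18 and 6.72 in eMZB_KO, against 4.38, 3.93 and 3.37 in TrB_KO (log2 0.64, limma adjusted p = 0.00159). In wild type its groups overlap, with 5.38, 4.39 and 4.50 in eMZB_WT, against 4.07, 5.05 and 5.22 in TrB_WT.

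Zfp318, which is needed for IgD transcripts in mature B cells, had 3.48, 3.82 and 3.37 scaled FPKM in eMZB_KO, against 1.76, 2.07 and 1.96 in TrB_KO. In eMZB_WT it had 4.60, 3.59 and 2.64, against 2.87, 2.86 and 1.57 in TrB_WT. The knockout groups do not overlap and the wild-type groups do. Its log2 change was 0.64 (SE 0.18, limma adjusted p = 0.0186) in the knockout and 0.43 (SE 0.18, adjusted p = 0.0952) in wild type, where it passed without the library labelled eMZB_WT replicate 3 (0.59, adjusted p = 0.0394). The knockout call was lost without TrB_KO replicate 1 (adjusted p = 0.0527) and without eMZB_KO replicates 1 and 2 (0.0506 and 0.0663). Zfp800, Zfp287 (0.53) and Zfp661 (0.52) were the other large rises in the knockout.

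The larger falls in the knockout beside the CCCH genes and Zfp608 were those of Zfp433, Zfp825, Zfp944, Zfp709 and Zfp512. Zfp512 had 4.61, 5.33 and 4.91 scaled FPKM in eMZB_KO, against 8.84, 7.10 and 7.97 in TrB_KO (log2 -0.59, limma adjusted p = 0.00162), without overlap. Zfp709 fell by 0.60 (adjusted p = 0.00668), Zfp944 by 0.60 (adjusted p = 0.00468) and Zfp825 by 0.63 (adjusted p = 0.00743). Zfp433 fell by 0.73 (limma adjusted p = 0.00471), but 94.1% of its transcript windows also occur under another gene, with the predicted gene Gm32687 sharing the most. For Zfp825 that share is 28.7%. Zfp740, 1 of the 6 genes of highest level, had 12.2, 12.1 and 13.5 in eMZB_KO, against 15.6, 16.8 and 19.9 in TrB_KO (log2 -0.43, limma adjusted p = 0.0274), while in wild type the change was -0.06 (adjusted p = 0.764). With the replicate number as a block in a fit of the 6 knockout libraries, 30 Zfp genes were called, beside 2452 of all 9842 genes. In that fit the limma adjusted p was 0.107 for Zfp287, 0.11 for Zfp661, 0.0591 for Zfp12, 0.0618 for Zfp607a, 0.0696 for Zfp263 and 0.0622 for Zfp882.

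**Figure D4:**
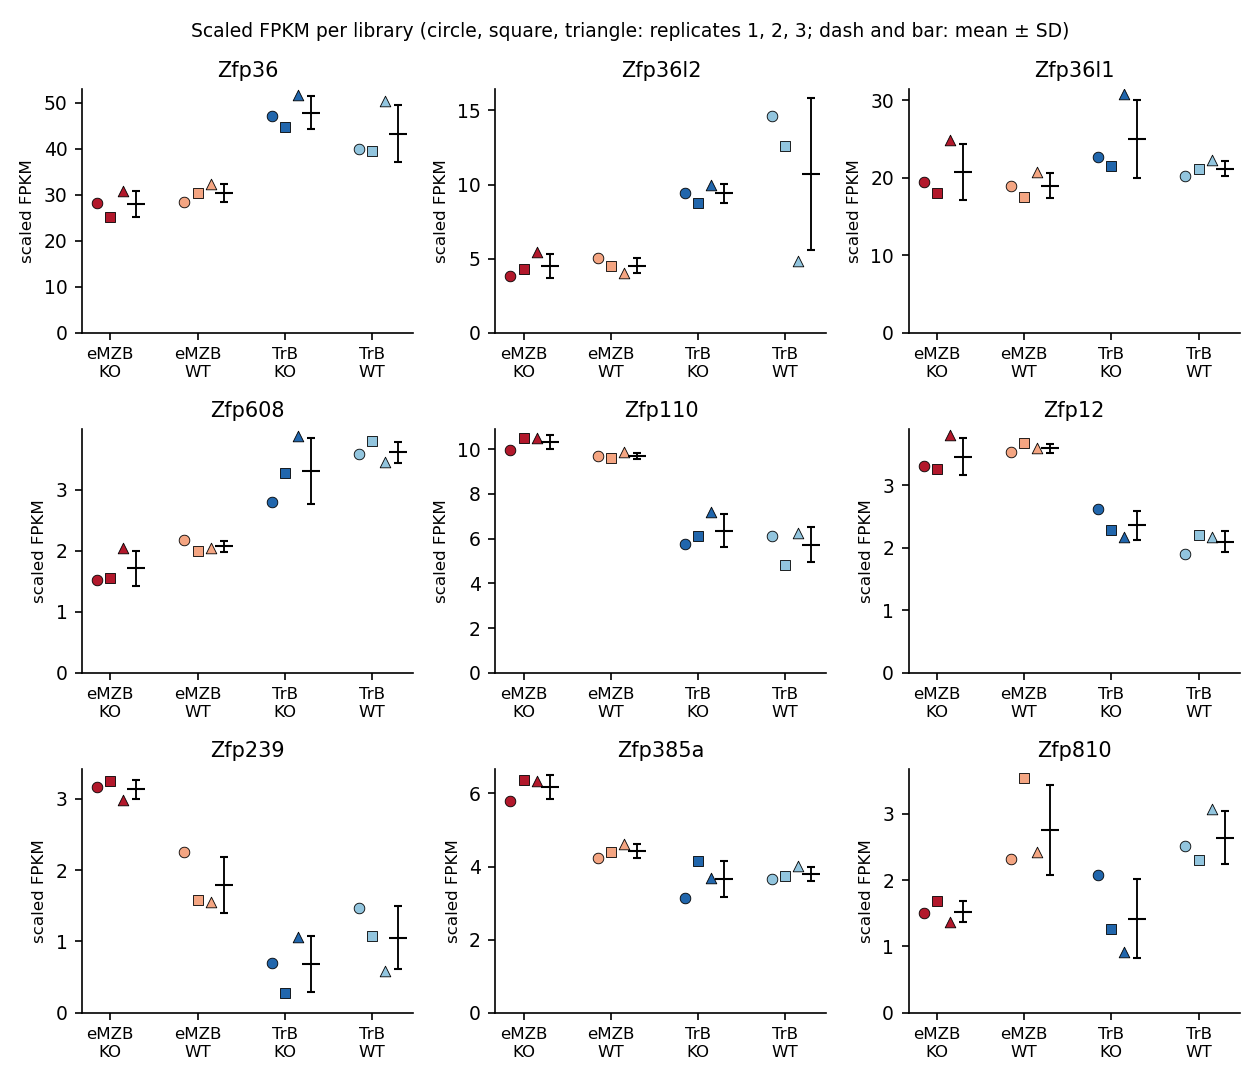
Scaled FPKM (vertical axes, from 0) of 9 Zfp genes in each of the 12 libraries, by group, with mean ± SD beside the 3 points. Zfp36, Zfp608, Zfp110, Zfp12, Zfp239 and Zfp385a separate all eMZB from all TrB libraries, whereas in Zfp36l2 the library labelled TrB_WT replicate 3, at 4.83, lies among the eMZB values; on the deposited scale the wild-type changes of Zfp36, Zfp608 and Zfp36l1 are above 0.

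By class and by neighbourhood, counts are read beside those of all genes, of which 14.2% were called higher and 13.2% lower in the knockout, and 14.6% and 12.7% in wild type. Of the 100 KRAB genes, 2 were called higher and 6 lower in the knockout, and 2 higher and 10 lower in wild type. Of the 147 C2H2 genes without a KRAB match, 12 were higher and 21 lower in the knockout, and 8 higher and 12 lower in wild type. The share of genes with a log2 change above 0 was 34.0% and 31.0% for KRAB genes, 34.7% and 44.2% for the others, and 49.0% and 49.8% for all genes, in the knockout and in wild type. Among the 108 genes in dense clusters, 3 were higher and 14 lower in the knockout, and 5 higher and 9 lower in wild type. Among the 91 genes with no neighbour of the family, 9 were higher and 9 lower in the knockout, and 3 higher and 10 lower in wild type. On chromosome 8, the neighbours Zfp869 and Zfp963, whose starts lie within 500 kb, both rose in wild type (0.56 and 0.57) and had changes of 0.10 and 0.02 in the knockout, and 40.4% of the transcript windows of Zfp963 are shared with another gene. Neither passed the interaction test between genotypes (limma adjusted p = 0.686 for each). Of the 17 Zfp genes of that chromosome, 0 were called higher and 5 lower in the knockout, and 2 higher and 2 lower in wild type.

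The partners of KRAB proteins were also counted. Of 29 tested genes of the corepressor and heterochromatin list, 5 were higher and 3 lower in eMZB_KO than in TrB_KO, and 6 higher and 2 lower in eMZB_WT than in TrB_WT. The share called was 27.6% in each, near the 27.4% of all listed genes. Uhrf1, a reader of hemimethylated DNA, averaged 12.53 ± 0.19 scaled FPKM in eMZB_KO and 6.96 ± 0.57 in TrB_KO, and 10.4 ± 0.56 in eMZB_WT and 4.71 ± 1.25 in TrB_WT (SD, n = 3 libraries each; limma adjusted p = 0.00141 and 0.000168). The histone chaperones Rbbp7 and Rbbp4 and the heterochromatin protein Cbx3 rose in both genotypes, by 0.44 to 0.83 on the log2 scale in wild type. Atf7ip, a partner of Setdb1, fell by 0.56 in the knockout and 0.38 in wild type, and Morc3 by 0.74 and 0.42. Trim28 itself averaged 13.04 in eMZB_KO and 7.56 in TrB_KO, and 11.2 in eMZB_WT and 7.47 in TrB_WT, without passing the test (limma adjusted p = 0.0965 and 0.138). Setdb1 had log2 changes of -0.01 and 0.01 (SE 0.09).

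Other zinc finger families are given by the same counts, beside 27.4% of all listed genes called in each genotype. Of 8 Klf genes, 3 (37.5%) were lower in the knockout and 6 (75%) in wild type, and 0 were higher. Klf2, a factor that holds lymphocytes in a quiescent and recirculating state, had a log2 change of -1.70 (SE 0.33, limma adjusted p = 0.00213) in the knockout and -1.48 (SE 0.33, adjusted p = 0.00517) in wild type. Of 29 Zbtb genes, 2 were higher and 2 lower in the knockout, and 1 higher and 3 lower in wild type (13.8% called in each). Of 15 Zkscan and Zscan genes 1, Zscan26, was higher in each. Of 3 Ikzf genes, Ikzf5 was lower in wild type. Of 61 genes with other zinc finger symbols, 6 were higher and 8 lower in the knockout (23.0% called), and 3 higher and 5 lower in wild type (13.1%).

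The LSD1 comparison asks what changed in each cell type when the demethylase was lost. No Zfp gene passed the test in either cell type. In eMZB cells, eMZB_KO against eMZB_WT, limma called 0 of 254, beside 0.406% of all genes. Of the Zfp genes, 12 (4.72%) had an unadjusted p under 0.05, beside 5.39% of all genes. In TrB cells, TrB_KO against TrB_WT, it called 0 of 254, beside 0.498% of all genes, and 21 Zfp genes (8.27%) had an unadjusted p under 0.05, beside 9.91% of all genes. Voom on recovered reads also called 0 in each cell type, beside 0.528% of all genes in eMZB and 0.213% in TrB cells, and limma on the deposited FPKM called 0, beside 0.152% and 0.193%. With voom, 18 (7.09%) and 45 (17.7%) Zfp genes had an unadjusted p under 0.05 in eMZB and TrB cells, beside 6.81% and 15.1% of all genes. These Zfp shares lie above those of all genes, whereas by limma they lie below. The count was 0 on leaving out any 1 of the 12 libraries, including TrB_KO replicate 3 and both wild-type libraries with low Kdm1a.

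The changes were small and centred slightly below 0. The median log2 change was -0.05 in eMZB cells (all genes -0.00), with quartiles of -0.12 and 0.05, and -0.02 in TrB cells (all genes 0.01), with quartiles of -0.15 and 0.10. The median SE of a Zfp gene was 0.15. In eMZB cells 37.4% of Zfp genes and 48.8% of all genes had a change above 0, and in TrB cells 44.9% and 51.5%. On the deposited scale, where all genes had a median of 0.06 and 0.52, the medians of the Zfp genes were -0.01 and 0.43. Without overlap between libraries, 16 Zfp genes were higher and 23 lower in eMZB_KO (6.30% and 9.06%, beside 9.13% and 9.29% of all genes), and 6 were higher and 12 lower in TrB_KO (2.36% and 4.72%, beside 6.14% and 4.37%). The KRAB genes had medians of -0.06 and -0.08, with 37.0% above 0 in each cell type.

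**Figure D5:**
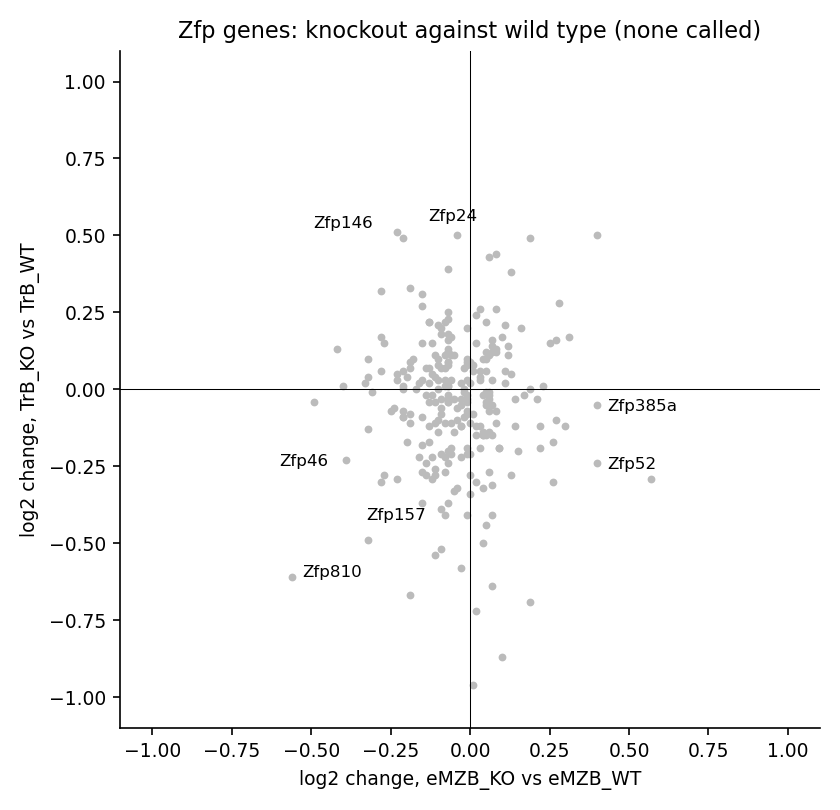
Log2 change of each of the 254 Zfp genes with LSD1 loss in eMZB cells (horizontal axis) and in TrB cells (vertical axis), from limma on scaled FPKM. No point passed the test; Zfp810 is low on both axes (-0.56 and -0.61), while on the deposited scale Zfp157 lies above 0 in TrB cells.

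The genes with the smallest p show what lies nearest the threshold. Zfp810, a KRAB gene on chromosome 9, had 1.51, 1.69 and 1.37 scaled FPKM in eMZB_KO, against 2.32, 3.54 and 2.42 in eMZB_WT, and 2.08, 1.26 and 0.909 in TrB_KO, against 2.51, 2.31 and 3.08 in TrB_WT. All knockout libraries were lower than all wild-type libraries of the same cell type. The log2 change was -0.56 (SE 0.18, limma adjusted p = 0.509) in eMZB cells and -0.61 (SE 0.18, adjusted p = 0.249) in TrB cells. Zfp385a had 5.79, 6.38 and 6.34 in eMZB_KO, against 4.24, 4.40 and 4.61 in eMZB_WT, without overlap (log2 0.40, SE 0.10, limma adjusted p = 0.187). Zfp52 had a log2 change of 0.40 (adjusted p = 0.366) and Zfp46 of -0.39 (adjusted p = 0.489) in eMZB cells.

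In TrB cells Zfp24, which is needed by myelinating glia in mice, had 9.02, 8.44 and 9.20 scaled FPKM in TrB_KO, against 5.30, 5.89 and 6.91 in TrB_WT. The groups do not overlap, and the log2 change was 0.50 (SE 0.12, limma adjusted p = 0.131). Zfp146 had 2.21, 2.82 and 2.92 in TrB_KO, against 1.56, 1.74 and 1.37 in TrB_WT, again without overlap (log2 0.51, SE 0.12, adjusted p = 0.144). Zfp157 had 2.54, 2.32 and 2.21 in TrB_KO, against 3.05, 3.55 and 3.58 in TrB_WT (log2 -0.39, SE 0.11, adjusted p = 0.249), and on the deposited scale its change was 0.11. None of the 4 changed beyond the threshold set over all genes.

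Whether LSD1 loss acted differently in both cell types was tested as the interaction, the eMZB change minus the TrB change. It called 0 of 254 Zfp genes, beside 0.0102% of all genes. By limma 12 Zfp genes (4.72%) had an unadjusted p under 0.05, beside 6.85% of all genes. Voom called 0 (0.0102% of all genes), with 33 Zfp genes (13%) at an unadjusted p under 0.05, beside 11.2% of all genes. On the deposited FPKM limma called 0, beside 0.152%. The smallest p belonged to Zfp146, with a difference of -0.74 (SE 0.18, adjusted p = 0.393), then Zfp52 with 0.64 (SE 0.17, adjusted p = 0.478) and Zfp24 with -0.53 (SE 0.16, adjusted p = 0.625). Across the 254 genes the LSD1 changes in eMZB and TrB cells had a Pearson r of 0.01 (0.14 across all genes), and 49.2% had the same sign (51.6% of all genes), a description across genes.

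Of the 17 genes chosen for known partners in chromatin or roles in lymphocytes, Zfp36, Zfp36l1, Zfp36l2, Zfp608, Zfp318 and Zfp207 are described above, and the others passed no test. Zfp217, whose human ortholog is found in CoREST complexes with LSD1, had 2.43, 2.52 and 2.11 scaled FPKM in eMZB_KO, against 1.66, 1.94 and 1.70 in eMZB_WT, and 1.96, 1.72 and 3.26 in TrB_KO, against 2.10, 1.90 and 1.14 in TrB_WT. The eMZB groups do not overlap and the TrB groups do. The log2 change with LSD1 loss was 0.28 in each (SE 0.18, limma adjusted p = 1.0 in eMZB and 0.617 in TrB cells). Zfp809, a KRAB protein that silences retroviruses through Trim28, ran from 4.98 to 6.29 in eMZB_KO and 6.28 to 6.92 in eMZB_WT, and from 5.80 to 6.60 in TrB_KO and 5.09 to 7.46 in TrB_WT. It passed no test. Zfp335, needed for T cell maturation in mice, ran from 7.28 to 14.4 over the 12 libraries, with the highest value in TrB_KO replicate 3. Zfp91 (a ubiquitin ligase of the NF-kB kinase NIK), Zfp281, Zfp384, Zfp143, Zfp148, Zfp292, Zfp131 and Zfp451 (a SUMO ligase) passed no test in any of the 5 contrasts. Zfp131 came nearest, with a log2 change of -0.32 (SE 0.11, limma adjusted p = 0.0549) in eMZB_WT against TrB_WT.

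The corepressor list gave 0 called genes of 29 with LSD1 loss in each cell type by limma on scaled FPKM. Setdb1 had log2 changes of 0.03 in eMZB and 0.05 in TrB cells (SE 0.09), and Trim28 of 0.21 and 0.12 (SE 0.30). Of the 29 Zbtb genes, 1 was called with LSD1 loss in eMZB cells. This was Zbtb32, a repressor expressed in activated lymphocytes, chosen after its values were seen, which averaged 5.14 ± 0.63 scaled FPKM in eMZB_KO and 1.78 ± 0.47 in eMZB_WT (SD, n = 3 libraries each; log2 1.15, SE 0.15, limma adjusted p = 0.00477).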

How the data were processed

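RNA was measured in 12 libraries of sorted mouse B cells, 3 in each of 4 groups, made per the labels' protocols with the SMART-Seq v4 and Nextera XT kits, which do not mark strand. STAR and mm10 were used per the submitters' processing notes, with versions, counting program and annotation unstated there. As deposited by the authors, the table holds FPKM values (per length and per library total) for 9842 genes, each at 1 FPKM or more in at least 3 libraries. Symbols came from the reference table by Entrez ID (9 unmatched), and 0 value columns were left unused. The Zfp genes and the gene lists were chosen with earlier results of these data known.

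FPKM were divided by median-of-ratios factors, and log2(value + 1) was fitted with limma 3.58.1 (trend; R 4.3.3) over all 12 libraries as 4 group means with 8 residual degrees of freedom. P-values were Benjamini-Hochberg adjusted over all 9842 genes and called under 0.05. Fold changes on this scale understate those of low genes. The fit was tested on simulated data. For voom, reads were recovered from the FPKM with the smallest length per gene at which all its values were whole within 0.02 reads. Such a length was found for all 9842 genes. It equalled the reference length in 180 of the 200 short RNA genes from which the read totals were taken. Read totals were 7.24 to 19.35 M; counts bound counting error only, since PCR reads are not independent molecules. Classes came from GENCODE coding sequences, where RefSeq proteins had been planned, read with Biopython 1.88. Promoter windows came from RefSeq.

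Genes were named by rule: per comparison with over 12 calls the 8 largest rises and 8 largest falls, the 6 highest levels, 17 genes with known roles, and the 4 smallest p per LSD1 comparison. Genes called in both cell type comparisons, Zbtb32 and genes with a motif were named after their values were seen. Same-numbered samples of eMZB_KO and TrB_KO deviated together (r = 0.161, 0.106 and 0.292). A pairing by number was therefore assumed, and a replicate block was fitted as an alternative. Samples of different number were not correlated, so these values have no baseline and do not establish the pairing. Alternatives were other scalings, pseudocount 0.1, a mean filter of 2, the compared libraries only, the block, voom, and leaving out each library. The block on the 6 knockout libraries was chosen after seeing the data.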

Additional observations from a re-analysis of the deposited data

How the results depend on the processing

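The LSD1 comparisons and the interaction called 0 Zfp genes under every alternative run. The count for eMZB_KO against TrB_KO was 43, and 1 on the FPKM as deposited, 73 with voom on recovered reads, and 21 to 51 on leaving out 1 library. The count for eMZB_WT against TrB_WT was 35, and 20 to 54 on leaving out 1 library. Over all 9842 genes the counts on leaving out 1 library ran from 1977 to 3082 in the knockout and from 1944 to 3407 in wild type. With the replicate block over 12 libraries the Zfp counts were 45 and 34 (2674 and 2735 of all genes). The block changed 1 call of a named gene (Zfp944 in wild type, adjusted p = 0.0572 by limma). The block on the 6 knockout libraries gave 30, beside 2452 of all genes. Same-numbered samples of other pairs of groups had deviation correlations of 0.021, 0.183 and 0.219 (eMZB_KO and eMZB_WT) and 0.07, 0.015 and 0.273 (eMZB_WT and TrB_WT). For TrB_KO and TrB_WT they were 0.049, -0.068 and -0.065. The larger of these reach the size of those for eMZB_KO and TrB_KO (0.161, 0.106 and 0.292). Whether the numbers pair samples is therefore not settled for any of the groups, eMZB_KO and TrB_KO included. On the deposited FPKM 11 log2 changes of named genes reversed. These were Zfp157 in TrB_KO against TrB_WT (0.11), Zfp36l1 in eMZB_KO against TrB_KO (0.04) and, in eMZB_WT against TrB_WT, Zfp263 (0.50), Zfp296 (0.19), Zfp36 (0.36), Zfp36l1 (0.68), Zfp608 (0.05), Zfp687 (0.22), Zfp825 (0.23), Zfp882 (0.03) and Zfp944 (0.31); this scale keeps the shift of all genes between libraries. The median Zfp gene had 142 reads per library, and call rate was not tested against depth.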
